A study of Homo sapiens with 52 samples.

Results

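The 8 members were tubulin mRNAs, each followed through 1 transcript identifier of the deposited count table, out of 226882 identifiers in all. They were chosen by gene name: TUBA1A (ENST00000301071.12), TUBA1B (ENST00000336023.9) and TUBA1C (ENST00000301072.10) for α-tubulin, and TUBB (ENST00000327892.13), TUBB2A (ENST00000333628.4), TUBB3 (ENST00000315491.12), TUBB4B (ENST00000340384.5) and TUBB6 (ENST00000317702.9) for β-tubulin. The pairing of these identifiers with gene symbols comes from that choice, since the count table holds identifiers alone.

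The RNA-seq, Ribo-seq and TCP-seq libraries were labelled HEK293T, a transformed human embryonic kidney cell line. The titles of the Sel-TCP-seq libraries do not name the cells. The series studied eIF2D, a non-canonical translation factor, and the related pair MCTS1 and DENR. RNA-seq and Ribo-seq (sequencing of ribosome-protected fragments) each had 2 libraries of MCTS1 KO #1, MCTS1 KO #2 and untransfected wild type (WT) cells, and 2 libraries of cells given siDENR #1, siDENR #2 or a control siRNA (siControl). TCP-seq, which profiles fragments held in translation complexes, had 2 libraries of each of eIF2D KO #1, eIF2D KO #2, MCTS1 KO #1 and MCTS1 KO #2, and 4 of WT. Selective TCP-seq of 40S complexes (Sel-TCP-seq) had 2 libraries for each of eIF2D-V5, MCTS1-V5 and DENR-V5, the V5-tagged proteins used for the selection. Whether a KO line was a single clone, and in which cells and at what level the tagged proteins were made, is not given in the labels. The labels also leave unsaid whether replicates were separate cultures. The p-values here reflect differences among libraries that could be purely technical. Without a table that pairs identifiers with genes, MCTS1, DENR and EIF2D were not checked in the libraries labelled as lacking them, and the kidney line was not checked against markers.

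α- and β-tubulin pair into the dimers from which microtubules are built. Cells tune tubulin synthesis through the mRNA: when free dimers are in excess, TTC5 binds the first residues of the nascent tubulin chain on the ribosome and, through SCAPER and the CCR4-NOT deadenylase, brings about decay of the mRNA that is being translated. Tubulin mRNA levels therefore depend on translation of the mRNA itself. TUBA1B and TUBA1C are broadly made α isotypes and TUBA1A is prominent in neurons. Among the β isotypes, TUBB and TUBB4B are widely made, TUBB3 is best known from neurons, and TUBB2A and TUBB6 vary between tissues.

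The sequences just before the start sites of 5 members are shown because the 3 α-tubulin members moved together in RNA-seq, TUBB3 showed the largest fall there and TUBB4B was the member that did not pass the test in either MCTS1 KO line. Each run is the 150 bases before the RefSeq start on GRCh38.p14, 5′ to 3′ on the gene's strand. Capitals mark 4 motifs on either strand. These are TATATA, the TATA word TATAAA, the CCAAT box (read as ATTGG on the other strand) and the GC box GGGCGG (read as CCGCCC on the other strand). Overlapping matches run together. TUBA1C has 3 listed starts and TUBB3 has 2, and the most downstream of them was used.
TUBA1A (chr12:49189081-49189230, minus strand): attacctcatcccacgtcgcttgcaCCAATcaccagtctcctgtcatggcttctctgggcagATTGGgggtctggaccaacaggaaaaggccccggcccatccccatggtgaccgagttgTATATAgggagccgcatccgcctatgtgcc
TUBA1B (chr12:49131396-49131545, minus strand): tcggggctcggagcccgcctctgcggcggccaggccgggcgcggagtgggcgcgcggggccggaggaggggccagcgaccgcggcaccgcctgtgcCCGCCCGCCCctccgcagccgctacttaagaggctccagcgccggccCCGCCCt
TUBA1C (chr12:49264932-49265081, plus strand): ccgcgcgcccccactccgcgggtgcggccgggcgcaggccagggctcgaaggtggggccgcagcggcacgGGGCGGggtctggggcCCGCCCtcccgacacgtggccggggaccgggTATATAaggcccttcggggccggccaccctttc
TUBB3 (chr16:89923192-89923341, plus strand): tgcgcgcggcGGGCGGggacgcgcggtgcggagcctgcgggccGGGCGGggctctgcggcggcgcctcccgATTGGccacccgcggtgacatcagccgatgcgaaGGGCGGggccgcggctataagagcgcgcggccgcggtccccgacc
TUBB4B (chr9:137241137-137241286, plus strand): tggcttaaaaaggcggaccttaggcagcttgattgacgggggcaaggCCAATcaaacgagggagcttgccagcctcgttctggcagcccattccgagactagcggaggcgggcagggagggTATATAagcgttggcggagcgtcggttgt
In these windows TATATA was found for TUBA1A, TUBA1C and TUBB4B and not for TUBA1B or TUBB3. CCAAT or its complement stood in the windows of TUBA1A, TUBB3 and TUBB4B, and GGGCGG or its complement in those of TUBA1B, TUBA1C and TUBB3. Among 35116 RefSeq promoters, searched over the 250 bases before the start, TATATA was present in 3.73%, TATAAA in 10.7%, CCAAT in 32.0% and GGGCGG in 42.6%. These shares cover a longer stretch than the 150-base windows, so they are not directly comparable with the windows. CCAAT was also present in the 300 bases listed around the TUBA1C start used, outside its window. None of the 4 motifs stood in all 3 α-tubulin windows. Whether these sequences have a part in the RNA-seq changes was not tested.

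The tubulin transcripts had high Ribo-seq CPM for their RNA-seq CPM, relative to other identifiers. Levels are given as CPM, the count divided by the library's total and scaled up by a fixed factor. Because CPM is not divided by transcript length, members are compared with themselves across assays and not with each other. Footprints come from coding sequence, whereas RNA-seq reads can come from the whole transcript. A ratio of the assays therefore also depends on how much of a transcript is coding, which was not taken into account. TUBA1A had 457 and 433 CPM in WT Ribo-seq, against 77.9 and 77.6 CPM in WT RNA-seq. TUBB3 had 29.1 and 34.1 CPM in WT Ribo-seq, against 6.66 and 6.33 CPM in WT RNA-seq. For these 2 members the share of Ribo-seq counts was thus several times the share of RNA-seq counts. These are shares of different kinds of library and not amounts, so they are set against other identifiers below.

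The ratio of mean Ribo-seq to mean RNA-seq CPM in WT was 5.73 ± 0.22 for TUBA1A, 1.71 ± 0.03 for TUBA1B and 2.85 ± 0.094 for TUBA1C (± is the SD carried over from 2 libraries per assay). Among the β-tubulin members this ratio was 1.54 ± 0.033 for TUBB, 2.71 ± 0.14 for TUBB2A, 4.87 ± 0.57 for TUBB3, 2.18 ± 0.14 for TUBB4B and 2.42 ± 0.052 for TUBB6. The median of the same ratio was 0.995 over the 28121 identifiers with at least 5 CPM in both assays, and all 8 members lay above it. TUBA1A stood at percentile 99.8, TUBB3 at 99.7, and TUBB, the lowest of the members, at 85.2. The identifiers compared were not restricted to coding transcripts or matched for the part that is coding, so a high percentile need not mean a high ribosome load. The limit on shared footprint fragments given below holds for these ratios too. In siControl cells the ratios were close to those in WT, from 1.59 ± 0.031 for TUBB to 5.80 ± 0.31 for TUBA1A.

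The members lay lower in TCP-seq relative to other identifiers. The ratio of mean WT TCP-seq to mean WT RNA-seq CPM lay between 0.365 ± 0.26 for TUBB3 and 0.778 ± 0.038 for TUBB, and it was 0.528 ± 0.091 for TUBA1A. The median over all 28038 identifiers with at least 5 CPM in both assays was 0.823, and the 7 members with that level were below it. TUBB, at percentile 45.0, TUBB4B, at 40.9, and TUBB6, at 32.9, were the nearest to it. TUBA1C stood at percentile 19.6, TUBA1B at 17.4, TUBA1A at 16.8 and TUBB2A at 6.48. TUBB3 was under 5 CPM in TCP-seq and rested on 1 to 11 counts in a WT library, so its value is imprecise. A Ribo-seq library held 16370112 to 193940882 counts in total and an RNA-seq library 76967099 to 301214608, whereas TCP-seq libraries held 1609303 to 5053637 and Sel-TCP-seq libraries 356019 to 2582917.

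The 3 α-tubulin members also stood in different proportions in the assays. In Ribo-seq the TUBA1A count was 0.683 to 0.733 of the TUBA1B count (median 0.707, 12 libraries), whereas in RNA-seq it was 0.182 to 0.227 (median 0.216, 12 libraries). It was 0.167 to 0.279 in TCP-seq (12 libraries) and 0.221 to 0.562 in Sel-TCP-seq (6 libraries). The TUBA1C count was 0.713 to 0.774 of the TUBA1B count in Ribo-seq and 0.381 to 0.463 in RNA-seq. TUBA1A and TUBA1C were nearly equal in Ribo-seq, with a TUBA1A count of 0.920 to 0.980 of the TUBA1C count, and apart in RNA-seq, at 0.467 to 0.572. The coding sequences of the α-tubulin genes are nearly the same, and footprints come from coding sequence, so short fragments can match several members. No source used here says how such fragments were counted, and the part of this in the equal footprint counts was not tested. The α-tubulin footprint counts are uncertain for that reason. RNA-seq counts were not checked for shared reads either. Proportions among β-tubulin members also differed between the assays. The TUBB2A count was 0.0990 to 0.121 of the TUBB count in Ribo-seq and 0.0480 to 0.0734 in RNA-seq. The TUBB4B count was 0.261 to 0.350 of the TUBB count in Ribo-seq and 0.204 to 0.264 in RNA-seq. Fragments shared among β-tubulin members were not checked either, so their footprint counts may carry the same limit. No other identifier had the same counts as a member in every library.

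**Figure D1:**
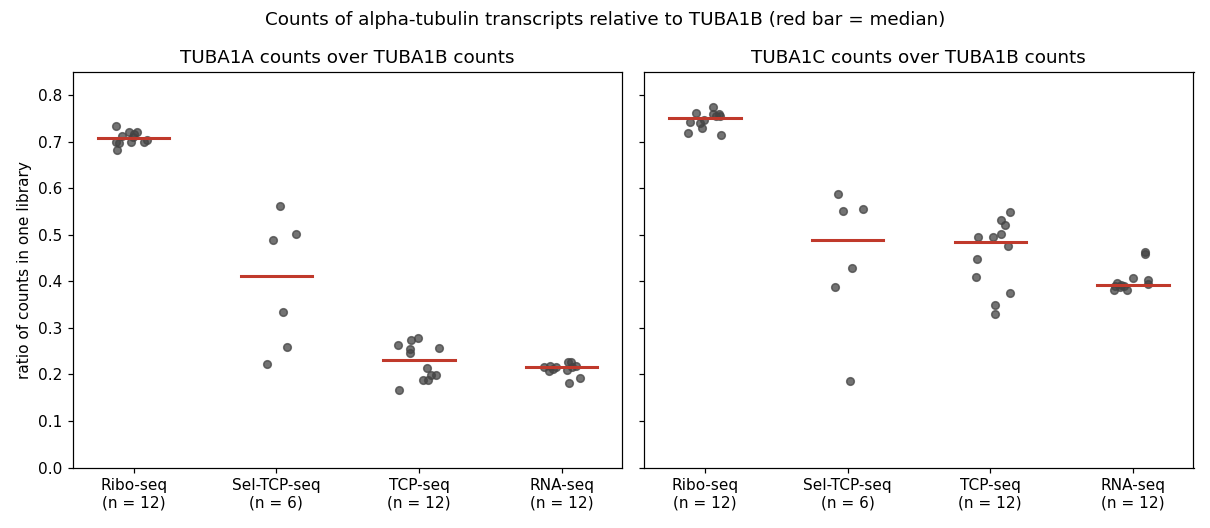
Counts of TUBA1A (left) and TUBA1C (right) divided by the TUBA1B count of the same library, one point per library and a red bar at the median, for Ribo-seq, Sel-TCP-seq, TCP-seq and RNA-seq. The 12 Ribo-seq libraries sit together near 0.707 for TUBA1A, above all RNA-seq libraries, which sit near 0.216, while the 6 Sel-TCP-seq libraries spread from 0.221 to 0.562.

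The 2 MCTS1 KO lines showed opposite α-tubulin mRNA changes against WT. The test was edgeR's quasi-likelihood test on all 131951 identifiers that passed a filter on low counts, with Benjamini-Hochberg adjusted p under 0.05 as the threshold. In MCTS1 KO #1, 7 of the 8 members fell against WT, where 21.7% of all identifiers were called lower and 20.5% higher. In MCTS1 KO #2, 3 members rose and 1 fell, against 7.39% of all identifiers called higher and 7.51% lower. The median log2 change of the members was -0.38 in MCTS1 KO #1 and 0.05 in MCTS1 KO #2, against medians of 0.00 in each line over all identifiers. In these bulk lysates, fewer cells with a transcript and less of it per cell cannot be told apart.

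TUBA1A had 54.3 and 59.9 CPM in MCTS1 KO #1 and 99.7 and 101 CPM in MCTS1 KO #2, against 77.9 and 77.6 CPM in WT RNA-seq. The 3 groups did not overlap, with WT between the KO lines. The log2 change of TUBA1A was -0.49 ± 0.04 in MCTS1 KO #1 (SE, edgeR adjusted p = 2.2e-16) and 0.41 ± 0.04 in MCTS1 KO #2 (adjusted p = 8.8e-13). TUBA1B had 298 and 310.3 CPM in MCTS1 KO #1 and 481 and 483 CPM in MCTS1 KO #2, against 360.5 and 359 CPM in WT. Its log2 changes were -0.28 ± 0.03 and 0.46 ± 0.03 in lines #1 and #2 (edgeR adjusted p = 3.3e-10 and 1.1e-17). WT again lay between the lines for this broadly expressed isotype. TUBA1C had 113 and 118 CPM in MCTS1 KO #1 and 187 CPM in both libraries of MCTS1 KO #2, against 167 and 165 CPM in WT. TUBA1C fell by 0.56 ± 0.04 on the log2 scale in line #1 and rose by 0.22 ± 0.04 in line #2 (edgeR adjusted p = 2.7e-21 and 2.6e-06). All 3 α-tubulin members therefore fell in line #1 and rose in line #2. RNA-seq reads from their nearly identical coding sequences can also match several members, so these changes may not be fully separate. The part of shared reads in them was not tested.

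The β-tubulin members fell or did not pass the test. TUBB3, the isotype best known from neurons, had 3.94 and 3.47 CPM in MCTS1 KO #1 and 5.90 and 6.24 CPM in MCTS1 KO #2, against 6.66 and 6.33 CPM in WT RNA-seq. Its log2 change of -0.83 ± 0.08 in line #1 (edgeR adjusted p = 2e-14) was the largest among the members, and that in line #2 was -0.05 ± 0.08 (adjusted p = 0.74). TUBB2A had 14.0 and 13.4 CPM in MCTS1 KO #1 and 16.1 CPM in both libraries of MCTS1 KO #2, against 20.4 and 19.7 CPM in WT. It was the member that fell in both lines, with log2 changes of -0.58 ± 0.05 and -0.27 ± 0.05 in lines #1 and #2 (edgeR adjusted p = 3.8e-16 and 4.8e-05). TUBB, the widely made β isotype, had 272 and 279 CPM in MCTS1 KO #1 and 306 and 298 CPM in MCTS1 KO #2, against 314 and 307 CPM in WT. TUBB fell by 0.21 ± 0.03 on the log2 scale in line #1 (edgeR adjusted p = 6.5e-07), and its change in line #2 was 0.00 ± 0.03. TUBB6 fell by 0.27 ± 0.06 in line #1 (edgeR adjusted p = 0.00037) and had a log2 change of -0.16 ± 0.07 in line #2 (adjusted p = 0.1). TUBB4B had 66.8 and 67.4 CPM in MCTS1 KO #1 and 68.8 and 67.4 CPM in MCTS1 KO #2, against 67.6 and 64.3 CPM in WT, and these ranges overlapped. Its log2 changes were -0.01 ± 0.04 and 0.09 ± 0.04 (edgeR adjusted p = 0.79 and 0.13).

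The difference between the lines was itself past the threshold for 7 of 8 members, the exception being TUBB6, where 45.8% of all identifiers differed between the lines in either direction. The TUBB4B difference of -0.10 was lost with DESeq2 (adjusted p = 0.0505), in 3 of 6 edgeR fits that left out 1 library, and with scaling by library totals alone, where it was -0.02 (edgeR adjusted p = 0.65). Line #1 against line #2 gave a log2 difference of -0.90 ± 0.04 for TUBA1A, -0.74 ± 0.03 for TUBA1B and -0.77 ± 0.04 for TUBA1C (edgeR adjusted p = 2.3e-29, 8.3e-29 and 7.6e-29). Averaged over both lines, 1 member rose (TUBA1B, log2 change 0.09 ± 0.03, edgeR adjusted p = 0.018) and 5 fell (TUBA1C, TUBB, TUBB2A, TUBB3 and TUBB6), against 11.4% of identifiers called higher and 13.5% lower. That average leaves out the spread between lines, and for TUBA1A, at -0.04 ± 0.03, it is the mean of opposite changes. Without WT RNA-seq replicate 1 the 6 calls of the average came to 3. Over the 6 fits that left out 1 library, the TUBA1B call was lost in 4, that of TUBB in 2 and that of TUBB6 in 1. The libraries of MCTS1 KO #1 were the deepest in both assays, and the part of depth in these differences was not tested.

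Ribosome footprints on the members did not differ detectably between the MCTS1 KO lines and WT. TUBA1A had 449 and 465 CPM in MCTS1 KO #1 and 455 and 460.0 CPM in MCTS1 KO #2, against 457 and 433 CPM in WT Ribo-seq. TUBB3 had 30.2 and 37.3 CPM in MCTS1 KO #1 and 35.6 and 32.8 CPM in MCTS1 KO #2, against 29.1 and 34.1 CPM in WT. The groups overlapped for both, in contrast to their mRNA levels. For TUBB3 mRNA, however, line #2 lay just below WT and did not pass the test, and only line #1 was clearly apart. None of the 8 members passed edgeR's threshold in line #1, in line #2 or in the average. Of all 115412 identifiers tested, 16.6% passed in line #1, 3.61% in line #2 and 6.1% in the average. At an unadjusted p under 0.05, the counts were 0 in line #1, 1 in line #2 and 1 in the average. DESeq2 also called 0 in each of these comparisons. The log2 changes of the average lay between -0.12 ± 0.07 for TUBB2A and 0.14 ± 0.06 for TUBB4B. The lines were also not told apart in footprints: the log2 difference of TUBA1A between line #1 and line #2 was -0.00 ± 0.07, and that of TUBB3 was -0.02 ± 0.10. Without WT Ribo-seq replicate 2, 1 member was called in line #2 and 1 in the average.

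**Figure D2:**
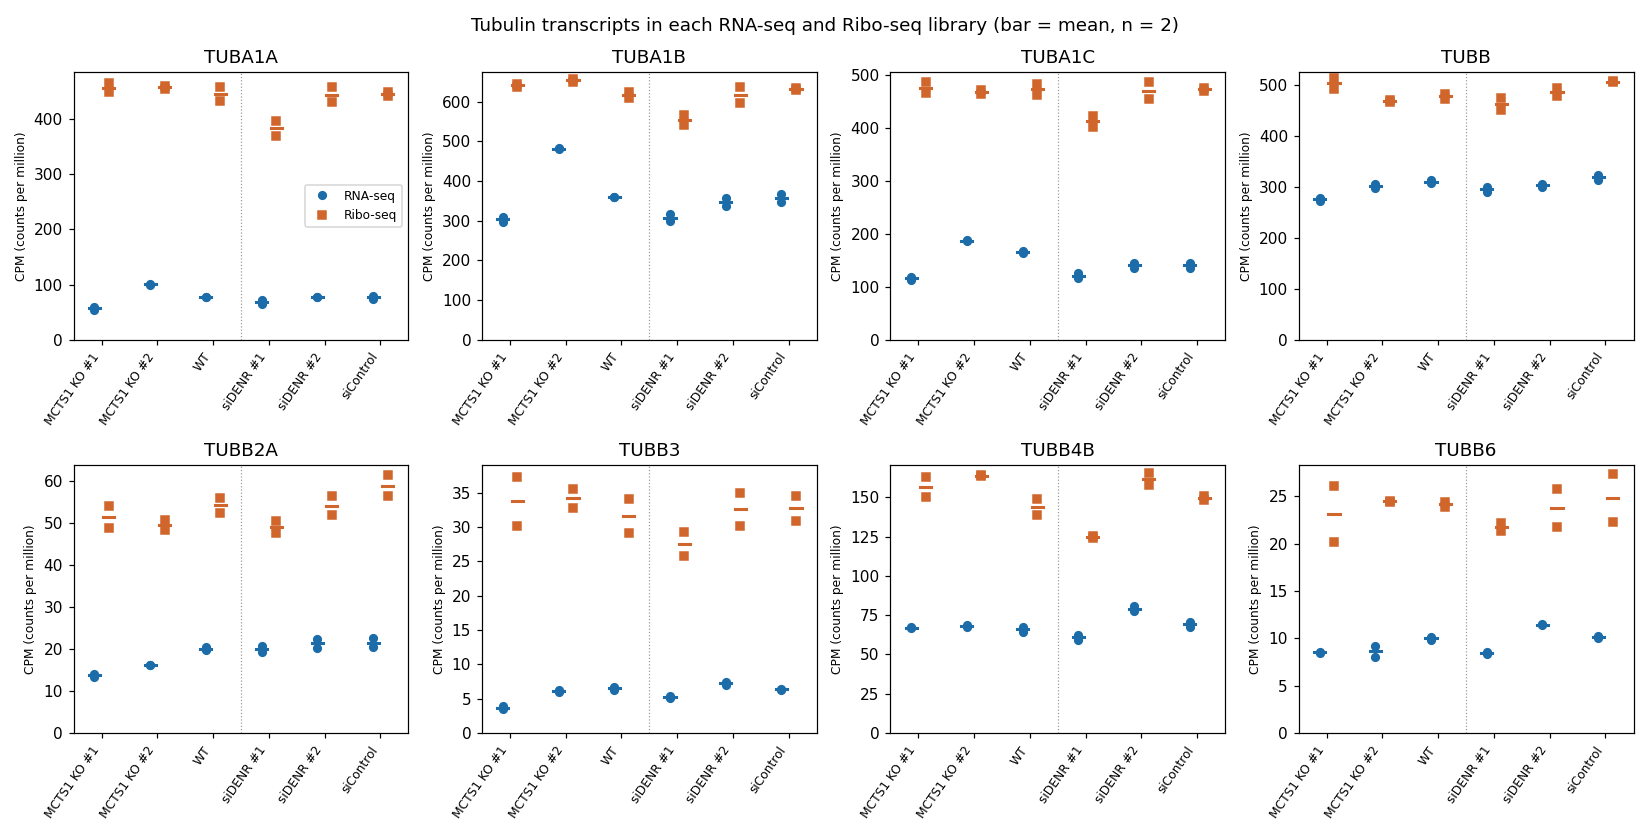
CPM of the 8 tubulin transcripts in each RNA-seq (circles) and Ribo-seq (squares) library of MCTS1 KO #1, MCTS1 KO #2, WT, siDENR #1, siDENR #2 and siControl, with a bar at the mean of 2 libraries. For the 3 α-tubulin members the RNA-seq circles of WT lie between the MCTS1 KO lines, and the Ribo-seq squares of the same groups lie close together, between 433 and 657 CPM over the 3 members.

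Translational efficiency was taken as the Ribo-seq change minus the RNA-seq change in 1 model over both assays, for 108757 identifiers. This contrast contains the RNA-seq change with the opposite sign, so it is not independent of the mRNA results. The limit on shared footprint fragments holds for this contrast too, so the values of single α-tubulin members are uncertain. In MCTS1 KO #1 it was higher for 6 of 8 members, against 2.49% of all identifiers called higher. The log2 change was 0.49 ± 0.08 for TUBA1A, 0.31 ± 0.07 for TUBA1B, 0.54 ± 0.08 for TUBA1C and 0.89 ± 0.13 for TUBB3 (edgeR adjusted p = 5.4e-05, 0.0056, 4e-06 and 4.2e-05). TUBB2A and TUBB rose by 0.47 ± 0.09 and 0.25 ± 0.07 (edgeR adjusted p = 0.00061 and 0.031), and TUBB lost the threshold in 7 of 12 fits that left out 1 library. TUBB4B, at 0.10 ± 0.08, and TUBB6, at 0.17 ± 0.13, did not pass.

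In MCTS1 KO #2 translational efficiency was lower for TUBA1A and TUBA1B, against 0.0919% of all identifiers called lower. Their log2 changes were -0.40 ± 0.08 and -0.41 ± 0.07 (edgeR adjusted p = 0.02 and 0.0069), and each lost the threshold in 6 of 12 fits that left out 1 library, including those without either MCTS1 KO #2 RNA-seq library. TUBA1C was at -0.26 ± 0.08 (edgeR adjusted p = 0.24). The difference between the lines was past the threshold for 6 members, against 6.27% of all identifiers in either direction, and for TUBA1A it was 0.89 ± 0.08 (edgeR adjusted p = 1e-10). Averaged over the lines, translational efficiency rose for TUBB3 alone among the 8 members, by 0.51 ± 0.12 (edgeR adjusted p = 0.028), against 0.336% of identifiers called higher, and this call was lost in 8 of 12 fits that left out 1 library. The ratio of Ribo-seq to RNA-seq CPM for TUBA1A was 8.00 ± 0.59 in MCTS1 KO #1 and 4.56 ± 0.053 in MCTS1 KO #2, against 5.73 ± 0.22 in WT.

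**Figure D3:**
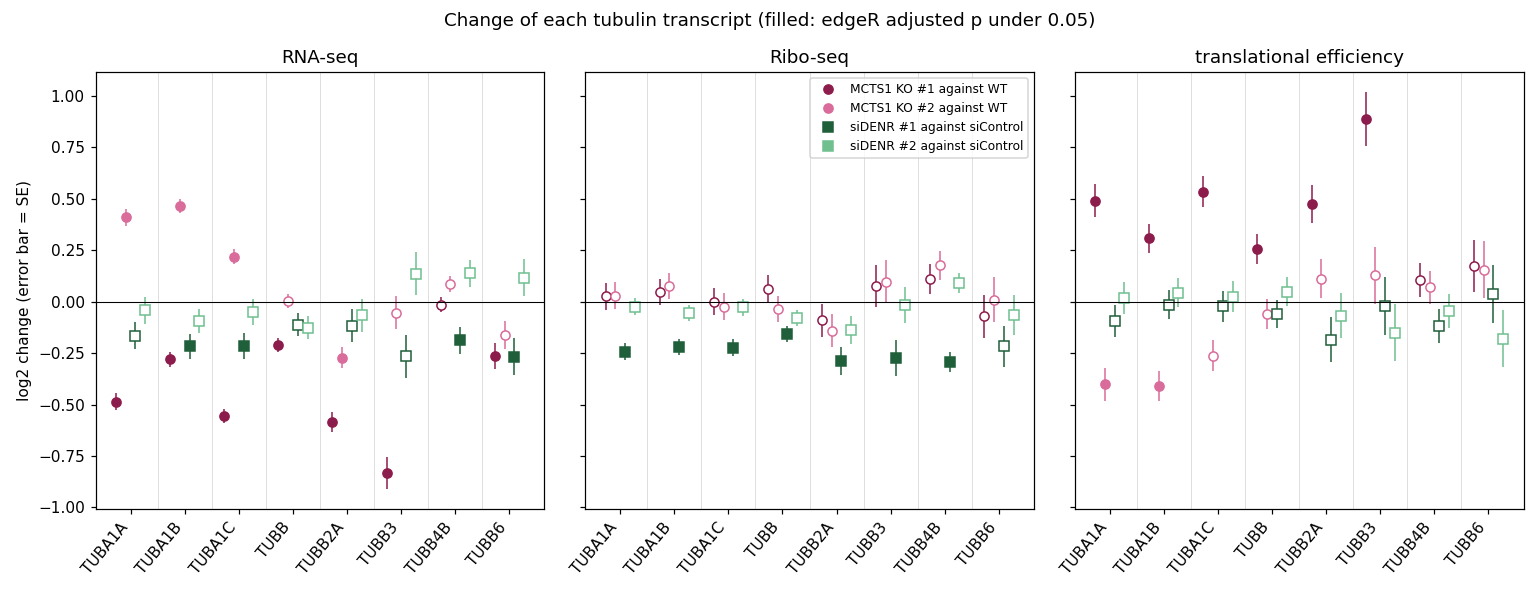
log2 change of each tubulin transcript in RNA-seq, Ribo-seq and translational efficiency for MCTS1 KO #1 and #2 against WT and siDENR #1 and #2 against siControl; error bars are the SE and filled symbols have an edgeR adjusted p under 0.05. In RNA-seq the α-tubulin members lie below 0 in MCTS1 KO #1 and above 0 in MCTS1 KO #2, and in Ribo-seq no member is filled for either MCTS1 KO line while 7 are filled for siDENR #1.

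Tubulin footprints were lower with siDENR #1, which targets DENR, the partner of MCTS1. In Ribo-seq 7 of 8 members fell with siDENR #1, against 6.05% of 108890 identifiers called lower, and 0 passed with siDENR #2, against 9.21% called in either direction. At an unadjusted p under 0.05 the siDENR #2 count was 0 with edgeR, and DESeq2 called 0 at its adjusted threshold. Averaged over both siRNAs, 5 members fell, against 6.05% of identifiers called lower: TUBA1A, TUBA1B, TUBA1C, TUBB and TUBB2A, with log2 changes of -0.12 ± 0.03 for TUBB to -0.21 ± 0.06 for TUBB2A. Without siControl replicate 1, siControl replicate 2 or siDENR #1 replicate 2, that count came to 1, and without siDENR #1 replicate 2 the siDENR #1 count was 4.

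TUBB4B had 124 and 125 CPM with siDENR #1 and 165 and 158 CPM with siDENR #2, against 151 and 148 CPM with siControl in Ribo-seq. The siDENR #1 libraries lay below siControl and those of siDENR #2 above it. Its log2 changes were -0.29 ± 0.05 with siDENR #1 (edgeR adjusted p = 1.7e-05) and 0.09 ± 0.05 with siDENR #2 (adjusted p = 0.3). TUBA1A had 396 and 369 CPM with siDENR #1 and 430.5 and 457 CPM with siDENR #2, against 448 and 442 CPM with siControl. Only the siDENR #1 libraries of TUBA1A were apart from siControl, by a log2 change of -0.24 ± 0.04 (edgeR adjusted p = 2.3e-05). TUBA1B and TUBA1C each fell by 0.22 ± 0.04 on the log2 scale with siDENR #1 (edgeR adjusted p = 4.8e-05 and 7.5e-05). TUBB2A fell by 0.29 ± 0.07, TUBB3 by 0.27 ± 0.09 and TUBB by 0.16 ± 0.04 (edgeR adjusted p = 0.0021, 0.03 and 0.0055). TUBB6, at -0.22 ± 0.10, did not pass (edgeR adjusted p = 0.17). The siRNAs differed from each other for 5 members, against 11.1% of all identifiers in either direction, most for TUBB4B at -0.38 ± 0.05 (edgeR adjusted p = 5.8e-08).

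The mRNA levels of some members were also lower with siDENR #1. In RNA-seq 4 of 8 members fell with siDENR #1, against 13.7% of 131311 identifiers called lower: TUBA1B, TUBA1C, TUBB4B and TUBB6. TUBA1B had 317 and 299 CPM with siDENR #1 and 357 and 338 CPM with siDENR #2, against 348 and 367 CPM with siControl. Its log2 changes were -0.22 ± 0.06 with siDENR #1 (edgeR adjusted p = 0.0035) and -0.10 ± 0.06 with siDENR #2 (adjusted p = 0.27). TUBB6 had 8.37 and 8.51 CPM with siDENR #1 and 11.4 and 11.5 CPM with siDENR #2, against 10.2 and 10.1 CPM with siControl. TUBB6 fell by 0.27 ± 0.09 with siDENR #1 (edgeR adjusted p = 0.024) and was at 0.12 ± 0.09 with siDENR #2. With siDENR #2, 0 members passed, against 19.2% of identifiers in either direction; 2 were under an unadjusted p of 0.05. The average of both siRNAs called 1 member, TUBA1B at -0.16 ± 0.05 (edgeR adjusted p = 0.017), against 12.9% called lower. The TUBB4B call with siDENR #1 was lost in 5 of 6 fits that left out 1 library, that of TUBB6 in 2 and those of TUBA1B and TUBA1C in 1 each. With siDENR #1 the count was 2 without siControl RNA-seq replicate 1 and 0 without siControl replicate 2. In the average it was 0 without siControl replicate 2 or siDENR #2 replicate 2 and 4 without siDENR #1 replicate 1. With siDENR #2 it was 2 without either siDENR #1 library, which enter that fit through the shared estimate of spread.

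Translational efficiency of the members did not change detectably with either siRNA. It was past edgeR's threshold for 0 of 8 members with siDENR #1, with siDENR #2 and in the average, against 0.217%, 0.591% and 0.369% of 102515 identifiers. At an unadjusted p under 0.05 the count was also 0 in all 3, and with DESeq2 it was 0. The log2 changes of the average lay between -0.13 ± 0.09 for TUBB2A and 0.01 ± 0.06 for TUBA1B. For TUBA1A the ratio of Ribo-seq to RNA-seq CPM was 5.59 ± 0.48 with siDENR #1 and 5.73 ± 0.25 with siDENR #2, against 5.80 ± 0.31 with siControl.

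TCP-seq showed no member past the threshold in the average of either pair of KO lines, at depths that left the less counted members imprecise. Each KO was set against the WT libraries next to it in the run of library names, WT 1 and 2 for eIF2D and WT 3 and 4 for MCTS1. TUBA1A had 45.0 and 42.9 CPM in eIF2D KO #1 and 45.3 and 45.2 CPM in eIF2D KO #2, against 39.2 and 51.5 CPM in WT 1 and 2. The WT libraries enclosed all 4 KO values. TUBB2A had 14.2 and 11.2 CPM in eIF2D KO #1 and 8.51 and 6.71 CPM in eIF2D KO #2, against 6.16 and 8.84 CPM in WT 1 and 2. Its log2 change of 0.69 ± 0.31 in eIF2D KO #1 did not pass (edgeR adjusted p = 0.28). For the eIF2D KO, 0 of 8 members passed in line #1, in line #2 and in the average, against 1.84%, 3.29% and 1.61% of 50991 identifiers. At an unadjusted p under 0.05 the counts were 3, 1 and 2, and with DESeq2 the adjusted counts were 0. The log2 changes of the average lay between -0.23 ± 0.10 for TUBA1B and 0.56 ± 0.51 for TUBB3, whose counts per library were 3 to 21.

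For the MCTS1 KO in TCP-seq, 0 of 8 members passed in line #1, in line #2 and in the average, against 4.99%, 19.1% and 13.8% of identifiers. At an unadjusted p under 0.05 the counts were 2, 0 and 1, and with DESeq2 the adjusted counts were 0. TUBA1B had 160.0 and 159.7 CPM in MCTS1 KO #1 and 221 and 231 CPM in MCTS1 KO #2, against 187 and 194 CPM in WT 3 and 4. WT lay between the lines, as it did for this member in RNA-seq. The lines differed by a log2 value of -0.42 ± 0.12 (edgeR adjusted p = 0.021), where 3.44% of identifiers differed in either direction, and this call was lost in 4 of 12 fits that left out 1 library and with DESeq2 (adjusted p = 0.094). TUBA1B was the member of 8 past the threshold between the lines, and TUBA1A was at 0.02 ± 0.17. Without MCTS1 KO #1 replicate 1, 1 member was called in line #1 and 1 in the average.

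Most members were more abundant in the V5-selected 40S complexes than in unselected WT TCP-seq. Over the 3 selections together, 6 of 8 members were higher, against 10.5% of 35013 identifiers called higher and 19.5% lower. The median log2 change was 0.72 over the members and -0.11 over all identifiers. With scaling by library totals alone the latter was -0.23, a shift of -0.12. Assay, cells and selection differ together in this comparison and cannot be told apart.

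TUBA1A had 139 and 239 CPM with eIF2D-V5, 59.0 and 185 CPM with MCTS1-V5 and 49.2 and 87.0 CPM with DENR-V5, against 39.2, 51.5, 37.1 and 36.3 CPM in the 4 WT TCP-seq libraries. DENR-V5 replicate 1 was within the WT range and the other 5 selected libraries were above it. The log2 change over the 3 selections was 1.64 ± 0.21 (edgeR adjusted p = 2e-07). TUBB3 had 13.8 and 24.8 CPM with eIF2D-V5, 5.62 and 28.9 CPM with MCTS1-V5 and 1.59 and 6.22 CPM with DENR-V5, against 2.92, 1.56, 4.48 and 0.526 CPM in WT TCP-seq. TUBB3 rested on 1 to 64 counts per selected library, with a log2 change of 2.26 ± 0.53 (edgeR adjusted p = 0.00067). TUBB2A rose by 1.77 ± 0.28, TUBA1B by 0.74 ± 0.16, TUBA1C by 0.70 ± 0.24 and TUBB4B by 0.65 ± 0.19 (edgeR adjusted p = 1.2e-06, 0.00024, 0.028 and 0.0058). TUBB, at 0.13 ± 0.16, and TUBB6, at 0.60 ± 0.35, did not pass. The count was 3 without MCTS1-V5 replicate 2, and TUBA1C, TUBB3 and TUBB4B were the members then lost.

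By selection, 6 members were higher with eIF2D-V5, 5 with MCTS1-V5 and 1 with DENR-V5 (TUBB2A, log2 change 1.35 ± 0.46, edgeR adjusted p = 0.046), against 19%, 6.86% and 3.95% of identifiers called higher. Without MCTS1-V5 replicate 2 the MCTS1-V5 count was 0, and the DENR-V5 count was 0 to 2 as single libraries were left out. For TUBA1A the log2 change was 2.21 ± 0.25 with eIF2D-V5, 1.79 ± 0.28 with MCTS1-V5 and 0.91 ± 0.31 with DENR-V5 (edgeR adjusted p = 4.5e-09, 2.1e-05 and 0.051). With the replicate number as a block, 2 members passed with DENR-V5, TUBA1A at 0.88 and TUBB2A at 1.31 (edgeR adjusted p = 0.012 and 0.033). That block also joined WT TCP-seq replicates 1 and 2 by number to selected libraries of another assay. The labels do not pair those libraries.

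**Figure D4:**
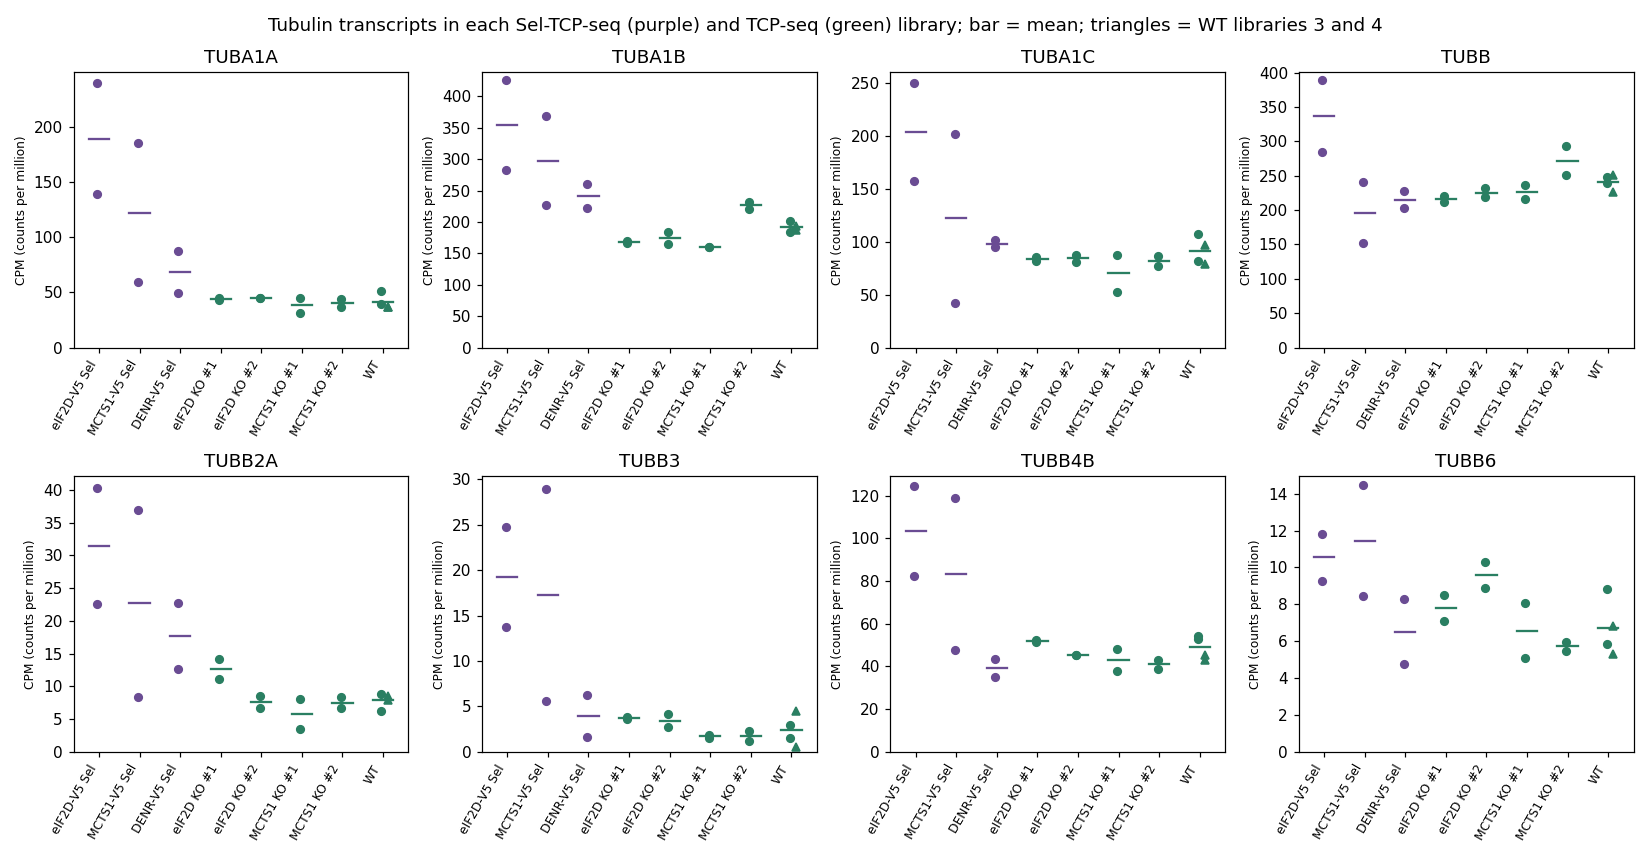
CPM of the 8 tubulin transcripts in each Sel-TCP-seq library (purple) of eIF2D-V5, MCTS1-V5 and DENR-V5 and each TCP-seq library (green) of eIF2D KO #1 and #2, MCTS1 KO #1 and #2 and WT, with a bar at the group mean and triangles for WT 3 and 4. For TUBA1A the selected libraries spread from 49.2 to 239 CPM and the TCP-seq libraries from 31.7 to 51.5 CPM, and the MCTS1-V5 libraries stand far apart from each other.

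Between eIF2D-V5 and the mean of MCTS1-V5 and DENR-V5, no member passed the threshold, and the log2 differences of all 7 tested members were above 0. TUBB6 failed the filter on low counts. The count was 0 of 7, against 22.1% of 12135 identifiers in either direction, with 5 members under an unadjusted p of 0.05 and 0 with DESeq2. The log2 differences were 0.25 ± 0.24 for TUBA1B to 1.11 ± 0.52 for TUBB3, and TUBA1A was at 0.91 ± 0.31 (edgeR adjusted p = 0.052). Their median was 0.71, against 0.03 over all identifiers and 0.18 over all identifiers with scaling by library totals alone. With the replicate number as a block, 4 members passed: TUBA1A at 0.92, TUBA1C at 0.73, TUBB at 0.55 and TUBB4B at 0.69 (edgeR adjusted p = 3.9e-05, 0.00095, 0.021 and 0.0061). The labels do not say whether these numbers pair the libraries. The replicates of MCTS1-V5 lay far apart, at 42.1 and 203 CPM for TUBA1C, and without MCTS1-V5 replicate 2 the count was 6 of 7. It was 3 without eIF2D-V5 replicate 1, and 1 without DENR-V5 replicate 2 or MCTS1-V5 replicate 1.

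Against DENR-V5 alone, 3 of 7 members were higher with eIF2D-V5, where 9.91% of identifiers were called higher. The log2 differences were 1.29 ± 0.39 for TUBA1A, 2.24 ± 0.75 for TUBB3 and 1.22 ± 0.36 for TUBB4B (edgeR adjusted p = 0.035, 0.048 and 0.03). TUBB3 had 1 and 3 counts in the DENR-V5 libraries, and the count of members was 0 with DESeq2, 0 without DENR-V5 replicate 1, 0 without eIF2D-V5 replicate 2 and 1 without DENR-V5 replicate 2. Against MCTS1-V5 alone, 0 of 7 passed, against 7.31% of identifiers in either direction, with 1 under an unadjusted p of 0.05 and 0 with DESeq2. With the replicate block that count was 2, TUBA1C at 0.67 and TUBB at 0.67 (edgeR adjusted p = 0.026 and 0.033), and it was also 2 without MCTS1-V5 replicate 2. MCTS1-V5 against DENR-V5 gave 0 of 7 members, 2 of them under an unadjusted p of 0.05, and 0% of all identifiers passed.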

How the data were processed

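The authors deposited whole-number counts per transcript identifier, not normalized. The tools named in the submitters' processing notes are STAR, cutadapt, Subread and featureCounts, without versions, and the builds GRCh38.p13 and hg38. No source used here says how reads that match several transcripts, or strand, were treated. Of 52 labelled samples, 42 have a column, and the other 10, in 5 groups, were not analysed here. The 8 members and all lists were chosen with earlier results of these data known.

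All identifiers were tested with edgeR 4.0.16 (R 4.3.3): TMM factors, filterByExpr with a minimum count of 10, robust quasi-likelihood fit, Benjamini-Hochberg adjustment over all identifiers. For translational efficiency the contrast was the group-by-assay interaction. A contrast's SE was the size of its log2 change over the square root of F. All 8 members passed the filter in every fit except TUBB6 among the selections. Calls were also made with DESeq2 1.42.0, with library totals alone, with no filter, with a replicate block and with each library left out. The fits were also run on simulated counts, with changes larger than any member showed in RNA-seq or Ribo-seq. That run therefore does not show how reliably such smaller changes are called. All members were named. Blocked values are given for Sel-TCP-seq because replicate differences of its 3 pairs of groups correlated at 0.489, 0.181 and 0.167 over 7331 identifiers. The labels do not say what a replicate number stands for, so pairing of these libraries is not established. The siDENR #1 and siDENR #2 RNA-seq groups correlated at 0.587 and were not taken as paired. The planned lists of tubulin chaperones, autoregulation factors and markers, the search for genes of like pattern, levels per length and sequence shared between members need a table pairing identifiers with genes, or transcript sequences, and were not run.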

Additional observations from a re-analysis of the deposited data

Results flagged for a closer look

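The results below are differences between the 2 MCTS1 KO lines or between the 2 siRNAs against DENR, each past edgeR's threshold (adjusted p under 0.05). In RNA-seq, MCTS1 KO #1 against MCTS1 KO #2 gave log2 differences of -0.8957 for TUBA1A, -0.7441 for TUBA1B, -0.7746 for TUBA1C, -0.214 for TUBB, -0.311 for TUBB2A, -0.7802 for TUBB3 and -0.102 for TUBB4B. The TUBB4B difference was lost in 3 of 6 fits that left out 1 library, with DESeq2 and with library totals alone. In translational efficiency the same lines differed by 0.8921 for TUBA1A, 0.7163 for TUBA1B, 0.7983 for TUBA1C, 0.3133 for TUBB, 0.3624 for TUBB2A and 0.7602 for TUBB3. TUBB2A was lost there in 5 of 12 such fits and with library totals alone, and TUBB in 2 of 12. In TCP-seq TUBA1B differed between the lines by -0.4183, which was lost in 4 of 12 such fits and with DESeq2.

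With siDENR #1 against siDENR #2, RNA-seq gave log2 differences of -0.1653 for TUBA1C, -0.4017 for TUBB3, -0.3256 for TUBB4B and -0.3837 for TUBB6, and TUBA1C was lost in 5 of 6 fits that left out 1 library, with DESeq2 and with no filter on low counts. TUBB3 was lost there in 1 of 6. Ribo-seq gave -0.219 for TUBA1A, -0.1645 for TUBA1B, -0.196 for TUBA1C, -0.2563 for TUBB3 and -0.3834 for TUBB4B. TUBA1B, TUBA1C and TUBB3 were each lost there in 2 of 6 such fits and TUBA1A in 1. TUBB3 was also lost with DESeq2, with library totals alone and with no filter. The cause of these differences was not tested.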

How the results depend on the processing

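Of 3226 values of single members under an alternative, 3017 kept their side of the threshold and their direction or, if not called, changed sign by no more than the SE. Another 107 fell below the threshold, 61 passed it, 41 uncalled values changed sign by more than the SE, and 0 called values changed sign. Of the 3226 values, 2399 were uncalled both in the main fit and under the alternative, and 181 of these changed sign. Most values that kept their side were thus never called. Levels over all transcripts of a gene were not computed.

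With library totals alone, 1 member was called with siDENR #2 in RNA-seq (0 with TMM), 3 with siDENR in Ribo-seq on average (5), 2 in MCTS1 KO translational efficiency on average (1), 1 in that of MCTS1 KO #2 (2) and 0 with DENR-V5 40S against WT TCP-seq (1). With no filter on low counts the counts were 2 for MCTS1 KO translational efficiency, 2 for eIF2D-V5 against MCTS1-V5 and DENR-V5, 3 for MCTS1-V5 40S and 0 for DENR-V5 40S against WT TCP-seq. With DESeq2 they were 0 for eIF2D-V5 against DENR-V5 and 0 for DENR-V5 40S, and the TUBA1B difference between the MCTS1 KO lines in TCP-seq was lost. With the other 2 WT libraries, MCTS1 KO #2 had 1 call in TCP-seq. The cause of these moves was not tested.

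With the replicate block, eIF2D-V5 against both other selections gave 4 calls, against MCTS1-V5 alone 2, and DENR-V5 40S against WT TCP-seq 2; no other count moved by over 1.5 times. Outside Sel-TCP-seq the replicate differences correlated at -0.332 to 0.587. The main fits treated no libraries as paired, as the labels do not say what a number stands for. No paired analysis was possible for the MCTS1 KO against WT in TCP-seq because WT 3 and 4 share no number with the KO libraries.

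With single libraries left out, counts ranged over 3 to 7 (6 in full) for MCTS1 KO RNA-seq, 0 to 1 for its Ribo-seq, 0 to 2 for its translational efficiency and 0 to 1 for its TCP-seq. MCTS1 KO #1 had 0 to 1 in TCP-seq, and MCTS1 KO #2 had 0 to 1 in Ribo-seq and 0 to 3 in translational efficiency. For siDENR they were 0 to 4 in RNA-seq and 1 to 5 in Ribo-seq, for siDENR #1 0 to 5 and 4 to 8, and for siDENR #2 0 to 2 in RNA-seq. Among selections they were 0 to 6 for eIF2D-V5 against both others, 0 to 2 against MCTS1-V5, 0 to 4 against DENR-V5, and, against WT TCP-seq, 3 to 6 for all selections, 0 to 6 for MCTS1-V5 and 0 to 2 for DENR-V5. Low counts limit TUBB2A, TUBB3 and TUBB6 in TCP-seq and Sel-TCP-seq, with 1 to 104 counts per library.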
